A study of Mus musculus with 28 samples.

Results

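Retinoid signalling was followed through 9 mouse genes that cover its uptake, synthesis, reversal and receptors. They are Stra6, Aldh1a1, Aldh1a2, Aldh1a3, Dhrs3, Rara, Rarb, Rarg and Rxra, taken by name from every library, out of 35267 genes in the first bulk RNA table and 35429 in the second. All 9 stood in both bulk tables. In single cells 4 of them were listed among the 9448 genes of days 1 and 3, and 5 among the 11662 genes of day 5.

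All cells came from C57Bl/6 mouse bone marrow selected for c-Kit, a receptor of blood stem and progenitor cells. In the first bulk table, MOZ-TIF2 cells (n = 2) carried the leukaemic fusion protein MOZ-TIF2 with a Ty1 tag on a retrovirus, and differentiated cells (n = 2) carried an empty retroviral vector. Both were sorted for GFP and grown for 4 days with cytokines, while fresh c-Kit+ cells (n = 2) were read as isolated. In the second, a line made with EYA1 and HOXA9 and a line made with HOXA9 alone were sorted on fluorescent markers, replated for 4 rounds in methylcellulose and treated for 72 h either with 5 µM benzarone, which inhibits EYA phosphatases, or with DMSO, its solvent (4 groups of n = 3). Single Ty1.MOZ-TIF2 cells, also replated, were read after 1, 3 and 5 days of 5 µM benzarone and after 1 and 5 days of DMSO, and Ty1 chromatin immunoprecipitation was done on such cells (n = 2). The transgenes were retroviral, the replicates of a line may be repeat cultures of the same line, and nothing in the labels says whether replicates came from separate animals. The p-values therefore measure only the spread between libraries, which may be technical.

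Retinol enters cells through STRA6, a receptor for the retinol-binding protein of blood, and is oxidised to retinal. The retinaldehyde dehydrogenases ALDH1A1, ALDH1A2 and ALDH1A3 then make retinoic acid, while DHRS3 reduces retinal back to retinol. Retinoic acid binds the nuclear receptors RARA, RARB and RARG, which act with a retinoid X receptor such as RXRA on paired hexamers in DNA, and CYP26A1 degrades it. In blood the pathway is best known for RARA and the maturation of granulocytes.

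The element that retinoic acid receptors are best known to bind is a direct repeat of a hexamer with a gap of 5 bases (DR5), and promoter windows from RefSeq (GRCm38.p6, 250 bases before to 50 after a start) were searched for it on both strands. As hexamers counted the canonical AGGTCA, its variant GGGTCA, and the related sequences AGTTCA as well as GGTTCA, and a window was available for 8 of the 9 genes, all but Aldh1a3. A DR5 was found in 0.0974% of 32851 promoter windows. Among the members it was in the window of Rarb, a classical target gene of retinoic acid, and it was also in that of Cyp26a1. Both are shown 5′ to 3′ in the direction of the gene with the DR5 in capitals, because Rarb had at most 4 counts in any bulk library while Cyp26a1 changed in several comparisons. The Rarb window lies at chr14:16575427-16575726 (minus strand) and the Cyp26a1 window at chr19:37697558-37697857 (plus strand). The third, at chr15:102246451-102246750 (minus strand), belongs to Rarg, holds none of the motifs searched, and is shown because a Ty1 peak covered it in replicate 2.
Rarb: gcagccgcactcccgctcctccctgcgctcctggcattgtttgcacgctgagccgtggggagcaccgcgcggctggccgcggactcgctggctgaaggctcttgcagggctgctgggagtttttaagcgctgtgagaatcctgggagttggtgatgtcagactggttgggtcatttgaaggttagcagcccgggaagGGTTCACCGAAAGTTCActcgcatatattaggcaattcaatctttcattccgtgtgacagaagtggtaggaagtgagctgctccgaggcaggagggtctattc
Cyp26a1: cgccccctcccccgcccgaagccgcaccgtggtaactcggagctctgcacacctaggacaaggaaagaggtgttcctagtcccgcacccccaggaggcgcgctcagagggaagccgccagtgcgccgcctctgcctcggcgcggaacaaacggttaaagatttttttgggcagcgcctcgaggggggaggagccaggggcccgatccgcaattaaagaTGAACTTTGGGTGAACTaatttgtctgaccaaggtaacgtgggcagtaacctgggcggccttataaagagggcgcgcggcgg
Rarg: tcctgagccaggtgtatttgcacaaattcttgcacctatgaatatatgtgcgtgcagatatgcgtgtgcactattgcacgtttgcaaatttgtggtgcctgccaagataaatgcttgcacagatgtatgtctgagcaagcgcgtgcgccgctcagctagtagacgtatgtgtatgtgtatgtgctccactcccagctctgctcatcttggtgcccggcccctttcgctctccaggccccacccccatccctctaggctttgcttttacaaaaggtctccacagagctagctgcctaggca
The single hexamer AGGTCA was in 16.3% of all windows, and among members it was in 1 of 4 windows of Rara, 1 of 2 of Rarg and 1 of 2 of Rxra. No window of Stra6, Aldh1a1, Aldh1a2 or Dhrs3 held AGGTCA, a DR5, or a repeat of the same hexamers with a gap of 1 or 2 bases (DR1, DR2).

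Estimated counts totalled 12397443 to 34605973 per bulk library. They are given below as CPM, the counts of a gene scaled to the size of its library with TMM factors, and levels of different genes are not set against each other, since CPM takes no account of gene length. Tests are edgeR's quasi-likelihood F test with Benjamini-Hochberg adjustment over all genes tested and a threshold of 0.05. Eya1, the gene added in one line, read 134 to 171 CPM in EYA1+HOXA9 cells with benzarone and 201 to 276 CPM with DMSO. In the 6 HOXA9 libraries it read at most 0.0329 CPM. Hoxa9 read 1238 to 1646 CPM in EYA1+HOXA9 cells with benzarone, 314 to 507 CPM in EYA1+HOXA9 cells with DMSO, and 180 to 241 CPM in all HOXA9 libraries. The stem and progenitor markers, Kit among them, summed to 41.3 to 57.4 CPM in MOZ-TIF2 cells, 5633 to 5699 CPM in differentiated cells and 351 to 369 CPM in fresh cells. Kit is also on the list of mast cell and basophil markers. These summed to 39.8 to 54.8 CPM in MOZ-TIF2 cells, 58429.5 to 86890.1 CPM in differentiated cells and 334 to 366 CPM in fresh cells. In the lines the granulocyte progenitor markers summed to 5632 to 7860 CPM in EYA1+HOXA9 with benzarone, 8294 to 8586 CPM in EYA1+HOXA9 with DMSO, and 12941 to 16606 CPM in HOXA9.

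The genes of the pathway were read unevenly in the lines. Of the 9 members, 6 passed the filter on low counts there. Aldh1a1 and Rarb had no count in any of the 12 line libraries, and Aldh1a2 had 1 count in each of 2 libraries. A count of 0 in all libraries of a group allows up to 0.0382 CPM (3 counts over the group) at the depth of HOXA9 in DMSO. Aldh1a3 was thus the one retinaldehyde dehydrogenase of the 3 with more than 1 count in any line library.

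Stra6, the retinol uptake gene, was read in the EYA1+HOXA9 line and in no HOXA9 library. With benzarone the EYA1+HOXA9 libraries held 3.20, 2.32 and 1.36 CPM, against 63.9, 37.8 and 49.1 CPM with DMSO. The groups lay far apart, and Stra6 fell with benzarone by a log2 difference of -4.44 ± 0.34 (SE; edgeR adjusted p = 0.000126, n = 3 each). Against the HOXA9 line, where all 6 libraries were at 0 counts, Stra6 in EYA1+HOXA9 was at least 70.1-fold higher in benzarone (edgeR adjusted p = 0.000138) and at least 1317-fold higher in DMSO (edgeR adjusted p = 6.46e-06). Whether the response to benzarone differed between the lines could not be estimated for Stra6, since HOXA9 held no counts. The 2 genes most like it over the 12 line libraries were Lmo1 and Nebl (Pearson r = 0.998 and 0.997 of log2(CPM + 1), a description over 4 groups among 8914 genes).

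Aldh1a3, which makes retinoic acid from retinal, was higher with benzarone in both lines and higher in EYA1+HOXA9 than in HOXA9. In EYA1+HOXA9 it stood at 541, 889 and 240 CPM with benzarone, against 106, 66.2 and 24.4 CPM with DMSO. In HOXA9 it stood at 57.2, 59.2 and 37.5 CPM with benzarone, against 17.7, 12.7 and 7.76 CPM with DMSO. Neither pair of groups overlapped, and replicate 3 was the lowest of its group in all 4 groups. The rise in EYA1+HOXA9 passed the test (log2 difference 3.09 ± 0.55, edgeR adjusted p = 0.00154), while that in HOXA9 did not (2.01 ± 0.54, edgeR adjusted p = 1). The HOXA9 libraries of the same number varied together, and with the replicate number as a block and only the 6 HOXA9 libraries in the fit the rise passed there too (2.04 ± 0.14, edgeR adjusted p = 0.0266, higher in 3 of 3 pairs). With that block in a fit over all 12 line libraries it did not (2.06 ± 0.54, edgeR adjusted p = 1). Blocking all 12 line libraries by replicate number gave 2.08 ± 0.31 in HOXA9, which did not pass (edgeR adjusted p = 0.0698). The difference between the 2 responses did not pass either (interaction 1.08 ± 0.73, edgeR adjusted p = 0.422). EYA1+HOXA9 was above HOXA9 by a log2 difference of 3.44 ± 0.56 in benzarone (edgeR adjusted p = 0.000743) and by 2.36 ± 0.54 in DMSO (edgeR adjusted p = 0.00874). Its closest genes over the 12 libraries were Itsn1 (r = 0.987) and Cp (r = 0.983).

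Dhrs3, the enzyme that returns retinal to retinol, was read at like levels in both lines and was higher with benzarone. It held 34.8, 26.2 and 19.1 CPM in EYA1+HOXA9 with benzarone, against 10.2, 11.7 and 9.94 CPM with DMSO. In HOXA9 the values were 22.4, 15.4 and 20.1 CPM with benzarone, against 12.7, 9.30 and 12.5 CPM with DMSO. The groups did not overlap in either line. The rise passed in EYA1+HOXA9 (1.33 ± 0.22, edgeR adjusted p = 0.00100) and not in HOXA9 (0.74 ± 0.22, edgeR adjusted p = 1), and the interaction was 0.59 ± 0.31 (edgeR adjusted p = 0.280). In the paired fit of the HOXA9 libraries alone the difference was 0.73 ± 0.08 (edgeR adjusted p = 0.0652), with benzarone above DMSO in 3 of 3 pairs. Between lines Dhrs3 did not pass the test in benzarone (0.47 ± 0.22, edgeR adjusted p = 0.131, and 0.0304 without EYA1+HOXA9 replicate 3) or in DMSO (-0.12 ± 0.22, edgeR adjusted p = 0.719). Cybb (r = 0.973) and Itgam (r = 0.953), both genes of phagocytes, had the most similar profile.

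**Figure D1:**
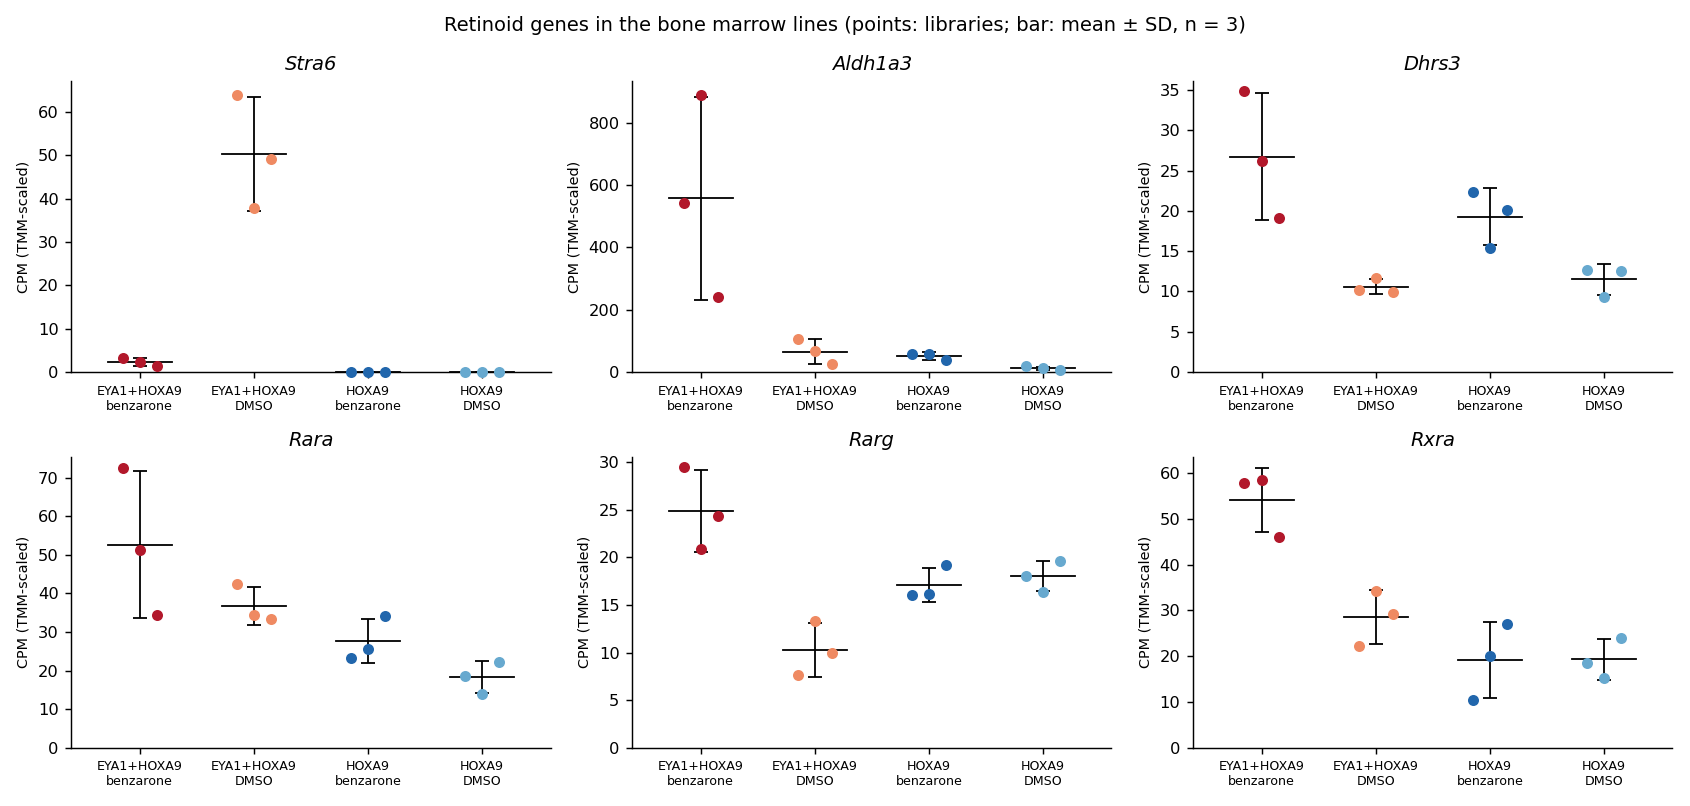
CPM (linear axis) of the 6 members that passed the low-count filter in the line table, with EYA1+HOXA9 on the left and HOXA9 on the right of each panel and benzarone left of DMSO; points are libraries and bars the mean ± SD (n = 3). Stra6 is near 0 except in EYA1+HOXA9 with DMSO (37.8 to 63.9 CPM), while Aldh1a3 is highest in EYA1+HOXA9 with benzarone (240 to 889 CPM).

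The receptors moved in different ways. Rarg, the receptor RAR gamma, read 29.5, 20.9 and 24.3 CPM in EYA1+HOXA9 with benzarone, against 7.67, 13.3 and 9.91 CPM with DMSO. In HOXA9 it read 16.0, 16.1 and 19.2 CPM with benzarone, against 18.1, 16.4 and 19.6 CPM with DMSO. Benzarone thus separated the groups in EYA1+HOXA9 and left them overlapping in HOXA9. Rarg rose in EYA1+HOXA9 by 1.28 ± 0.20 (edgeR adjusted p = 0.000670) and in HOXA9 the difference was -0.08 ± 0.19 (edgeR adjusted p = 1, 95% interval -0.45 to 0.30). It was the one member whose response differed between the lines by the interaction test (1.35 ± 0.27, edgeR adjusted p = 0.0135). EYA1+HOXA9 against HOXA9 gave a difference of 0.54 ± 0.19 for Rarg in benzarone (edgeR adjusted p = 0.0565, and 0.0392 with DESeq2), and in DMSO it was lower in EYA1+HOXA9 (-0.81 ± 0.20, edgeR adjusted p = 0.0111).

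Rxra, the retinoid X receptor that partners the retinoic acid receptors, held 57.8, 58.4 and 46.1 CPM in EYA1+HOXA9 with benzarone, against 22.3, 34.1 and 29.1 CPM with DMSO. In HOXA9 it held 10.5, 19.99 and 27.1 CPM with benzarone, against 18.5, 15.3 and 24.0 CPM with DMSO. The EYA1+HOXA9 groups stood apart and the HOXA9 groups overlapped. Rxra rose with benzarone in EYA1+HOXA9 (0.92 ± 0.28, edgeR adjusted p = 0.0289), a call that was lost without any of benzarone replicate 1 or 2 or DMSO replicate 1 or 3 of that line (edgeR adjusted p = 0.0834 to 0.0954). In HOXA9 the difference was -0.01 ± 0.29 (edgeR adjusted p = 1), and the interaction was 0.93 ± 0.40 (edgeR adjusted p = 0.189). With benzarone Rxra was higher in EYA1+HOXA9 than in HOXA9 (1.50 ± 0.29, edgeR adjusted p = 0.00244), and with DMSO the difference was 0.57 ± 0.29 (edgeR adjusted p = 0.168).

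Rara, the receptor RAR alpha of granulocyte maturation, was higher in EYA1+HOXA9 than in HOXA9 whatever the treatment. It stood at 72.5, 51.2 and 34.3 CPM in EYA1+HOXA9 with benzarone, against 23.1, 25.7 and 34.2 CPM in HOXA9 with benzarone. With DMSO it stood at 42.5, 34.5 and 33.3 CPM in EYA1+HOXA9, against 18.5, 14.0 and 22.3 CPM in HOXA9. The lines did not overlap, though in benzarone their nearest libraries were 34.3 and 34.2 CPM. The log2 difference was 0.93 ± 0.25 in benzarone (edgeR adjusted p = 0.0179) and 1.01 ± 0.26 in DMSO (edgeR adjusted p = 0.0151). The call in benzarone was lost without EYA1+HOXA9 replicate 1 or HOXA9 replicate 1 or 2 (edgeR adjusted p = 0.0650 to 0.107), and that in DMSO without HOXA9 replicate 2 (edgeR adjusted p = 0.0686). Benzarone against DMSO gave 0.52 ± 0.25 in EYA1+HOXA9 (edgeR adjusted p = 0.144, and 0.0302 without benzarone replicate 3) and 0.60 ± 0.26 in HOXA9 (edgeR adjusted p = 1). The interaction was -0.08 ± 0.36 (edgeR adjusted p = 0.931), and its 95% interval of -0.78 to 0.63 leaves room for a difference in either direction.

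Counted together, 5 of the 6 tested members passed for benzarone in EYA1+HOXA9, 4 higher and 1 lower, where 29.4% of all 13375 genes passed, 17.0% higher and 12.4% lower. In HOXA9 none of the 6 passed, as none of the 13375 genes did (0.0%), while 232 genes, Aldh1a3, Dhrs3 and Rara among them, had an unadjusted p under 0.05 and DESeq2 called 14. Pairing the HOXA9 libraries by number in a fit of these 6 alone gave 20 called genes (0.16% of 12517), Aldh1a3 among them, and 817 with an unadjusted p under 0.05. The same pairing in the fit over all 12 line libraries called none, with 335 at an unadjusted p under 0.05. Both fits were added after seeing the data. The interaction was called for 1 of 6 members, higher, and for 7.54% of all genes, 4.71% higher and 2.83% lower. With the HOXA9 libraries paired it was again called for 1 member, Rarg, and for 12.9% of all genes. In benzarone 4 of 6 members were higher in EYA1+HOXA9 than in HOXA9 and none lower, where 25.3% of all genes were called, 15.2% higher and 10.1% lower. In DMSO 3 of 6 were higher and 1 lower, where 22.9% were called, 12.1% higher and 10.8% lower. The members' median log2 difference with benzarone was 1.10 in EYA1+HOXA9 and 0.30 in HOXA9, beside 0.01 and 0.00 over all genes. Stra6, without counts in HOXA9, could not pass there or be read in the interaction, and it entered the HOXA9 median as 0. The sum of granulocyte progenitor markers moved between the same groups, as given above. The sum of late neutrophil markers was 85.8 to 205 CPM in EYA1+HOXA9 with benzarone, 241 to 285 CPM in EYA1+HOXA9 with DMSO, 855 to 3164 CPM in HOXA9 with benzarone and 759 to 2629.7 CPM in HOXA9 with DMSO. The part of either in these results was not tested.

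**Figure D2:**
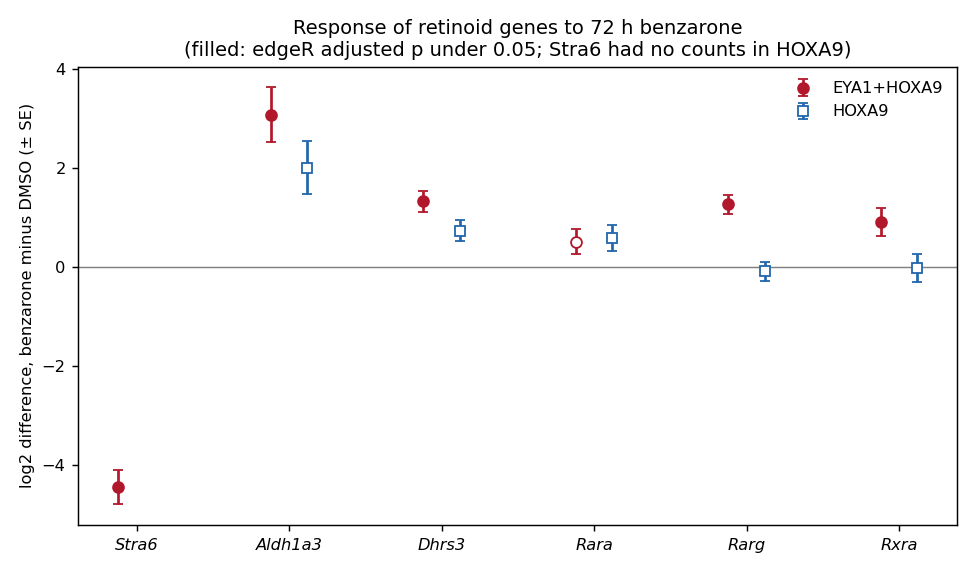
Log2 difference of benzarone minus DMSO with its SE for each tested member, in EYA1+HOXA9 (circles) and HOXA9 (squares); filled symbols passed the edgeR threshold. Stra6 has no square, since HOXA9 held no counts of it. Stra6 lies at -4.44 and Aldh1a3 at 3.09 in EYA1+HOXA9, and in this fit, which has no pairing, no symbol of HOXA9 is filled.

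Of a list of 30 other genes of retinoid transport and metabolism, 14 were tested in the lines. In EYA1+HOXA9, 1 of the 14 rose with benzarone and 1 fell, where 17.0% of all genes rose and 12.4% fell. The gene that rose was Cyp26a1, the enzyme that degrades retinoic acid, at 21.1, 40.7 and 3.61 CPM with benzarone, against 6.66, 1.63 and 0.879 CPM with DMSO. The groups overlapped, since benzarone replicate 3 lay below DMSO replicate 1, and the log2 difference was 2.84 ± 0.80 (edgeR adjusted p = 0.0191). In HOXA9, Cyp26a1 held 9.87, 6.87 and 10.3 CPM with benzarone, against 1.88, 1.47 and 3.74 CPM with DMSO, which did not overlap and did not pass (1.92 ± 0.80, edgeR adjusted p = 1, and 0.0574 in the paired fit of the HOXA9 libraries alone). The interaction for Cyp26a1 was 0.92 ± 1.10 (edgeR adjusted p = 0.686). The gene that fell was Retsat, which saturates retinol (-0.47 ± 0.14, edgeR adjusted p = 0.0238).

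Of 12 genes known to respond to retinoic acid, 6 were tested in the lines, and in EYA1+HOXA9 with benzarone 1 rose and 1 fell, where 17.0% of all genes rose and 12.4% fell. Tgm2, tissue transglutaminase, held 326, 343 and 196 CPM with benzarone, against 89.1, 198 and 194 CPM with DMSO (0.85 ± 0.30, edgeR adjusted p = 0.0491). Cebpe, a transcription factor of granulocyte maturation, held 6.65, 3.61 and 3.51 CPM with benzarone, against 40.9, 28.4 and 33.6 CPM with DMSO (-2.90 ± 0.62, edgeR adjusted p = 0.00431). The 2 genes thus went opposite ways, and the list's median was -0.43, beside 0.01 over all genes. Rarb, whose window holds the DR5, had no count in any line library, in benzarone or DMSO.

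In the table of MOZ-TIF2, differentiated and fresh cells, 8 of the 9 members passed the filter. Rarb did not, with 0 and 0 counts in MOZ-TIF2 cells, 0 and 0 in differentiated cells and 1 and 4 in fresh cells. Stra6 and Aldh1a3 stood highest in MOZ-TIF2 cells, Aldh1a1 in fresh cells and Aldh1a2 in 1 library of differentiated cells. In such bulk samples, fewer cells of a type and less RNA per cell cannot be told apart.

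Stra6 held 7.51 and 4.03 CPM in MOZ-TIF2 cells, 0 and 0.519 CPM in differentiated cells, and no count in fresh cells. In MOZ-TIF2 cells it was at least 59.1-fold higher than in fresh ones (edgeR adjusted p = 0.0365), a call lost without any 1 of these 4 libraries (edgeR adjusted p = 0.0601 to 0.188). Against differentiated cells the log2 difference was 4.38 ± 1.41 (edgeR adjusted p = 0.0728, but 0.0189 with DESeq2 and 0.0217 without differentiated replicate 2). Aldh1a3 held 1.72 and 1.02 CPM in MOZ-TIF2 cells, 0.430 and 0.207 CPM in differentiated cells, and 0.590 and 0.233 CPM in fresh cells. MOZ-TIF2 lay above both other groups, but the difference did not pass against fresh cells (1.75 ± 0.76, edgeR adjusted p = 0.143) or against differentiated cells (2.11 ± 0.75, edgeR adjusted p = 0.0830).

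Aldh1a1, the retinaldehyde dehydrogenase used as a marker of blood stem cells, was read almost only in fresh cells. It had no count in MOZ-TIF2 cells, 0.382 and 0 CPM in differentiated cells, and 64.2 and 67.4 CPM in fresh cells. It was at least 1555-fold lower in MOZ-TIF2 than in fresh cells (edgeR adjusted p = 0.00588), and it fell in differentiated cells by a log2 difference of -8.56 ± 1.05 (edgeR adjusted p = 0.00461). Without either fresh library both calls were lost (edgeR adjusted p = 0.0525 to 0.0681), while the fall in differentiated cells was -13.74 without replicate 1 of these cells and -7.41 without replicate 2. Aldh1a7, a near-identical neighbouring copy among which counting could split reads, went the same way, with 0.574 and 0.0292 CPM in MOZ-TIF2 cells, no count in differentiated cells, and 23.8 and 28.8 CPM in fresh cells. The value of Aldh1a1 is to that extent uncertain. The erythroid markers summed to 4.51 to 4.93 CPM in MOZ-TIF2 cells, with 4 of 7 at 0 there, 55.9 to 69.6 CPM in differentiated cells and 4311 to 6050 CPM in fresh cells, and their part in the result was not tested. The 2 genes most like Aldh1a1 over the 6 libraries were Slc26a1 (r = 1.00) and Epb42 (r = 1.00), the latter a gene of the red cell membrane. With so few libraries these r values are a description only.

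Aldh1a2, the third of these enzymes and the one known from dendritic cells of the gut, had no count in MOZ-TIF2 cells, 13.9 and 0.346 CPM in differentiated cells, and 0.516 and 0.931 CPM in fresh cells. It was at least 169-fold lower in MOZ-TIF2 than in differentiated cells (edgeR adjusted p = 0.0368), but replicate 1 made up nearly all of the differentiated signal. Without that library the fitted difference was -6.20 and not -10.49 (edgeR adjusted p = 0.0587), and the call was also lost without either MOZ-TIF2 library. The dendritic markers summed to 2.73 to 5.08 CPM in MOZ-TIF2 cells, 244 to 1986 CPM in differentiated cells and 312 to 482 CPM in fresh cells, with the same wide spread in differentiated cells, and their part in the result was not tested. The 2 genes most like Aldh1a2 were Adam23 (r = 0.983) and Ciita (r = 0.980), the latter the regulator of class II antigen genes and itself on that marker list.

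**Figure D3:**
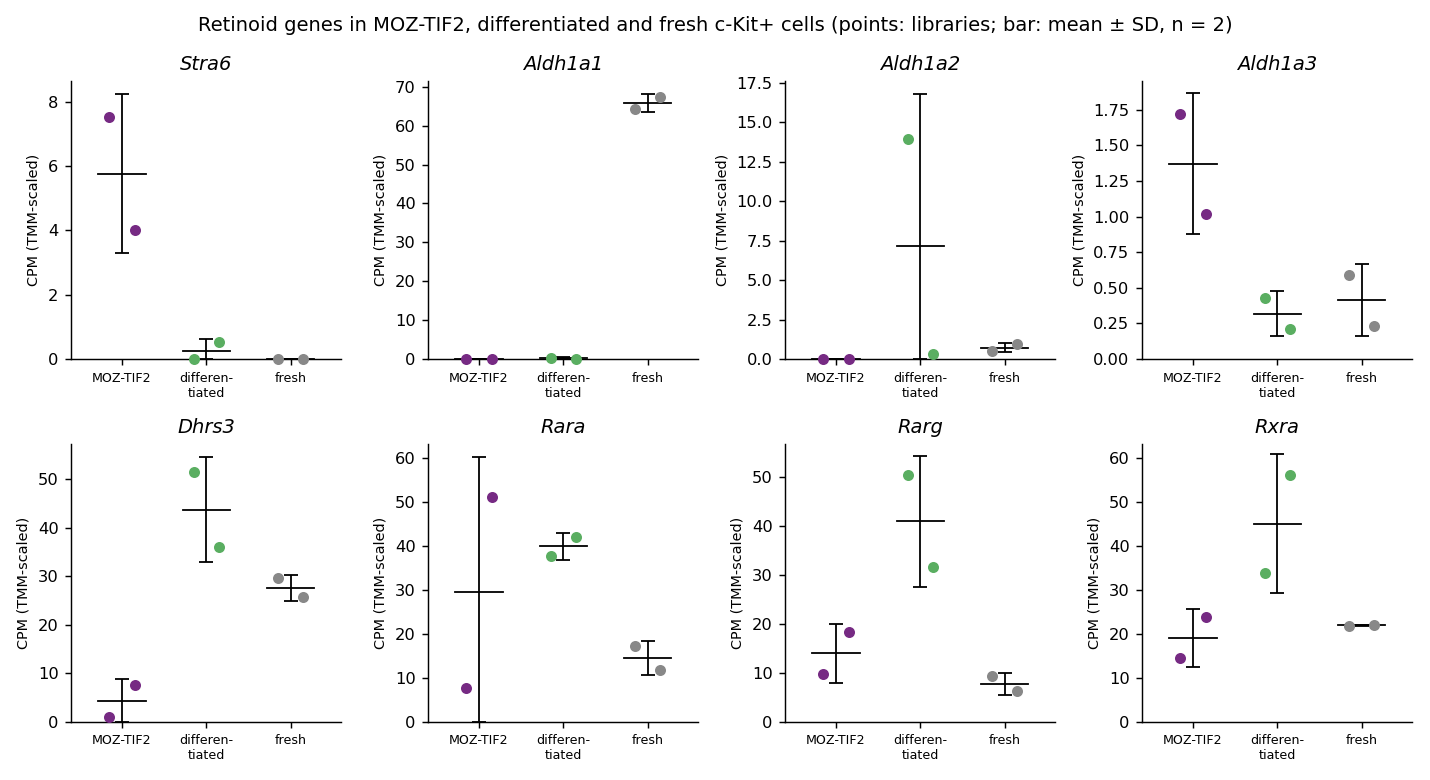
CPM (linear axis) of the 8 members that passed the low-count filter in MOZ-TIF2, differentiated and fresh c-Kit+ cells; points are libraries and bars the mean ± SD (n = 2), with lower ends stopping at 0. Stra6 is highest in MOZ-TIF2 cells, Aldh1a1 in fresh cells, Rarg in differentiated cells, and the 2 MOZ-TIF2 libraries lie far apart for Rara (7.73 and 51.3 CPM).

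Dhrs3 was low in MOZ-TIF2 cells. It held 0.929 and 7.53 CPM there, 51.4 and 36.0 CPM in differentiated cells, and 29.5 and 25.7 CPM in fresh cells. Both MOZ-TIF2 libraries lay under all others. The fall against differentiated cells passed (-3.37 ± 0.88, edgeR adjusted p = 0.0341), and that against fresh cells did not (-2.71 ± 0.86, edgeR adjusted p = 0.0685, but 0.00520 with DESeq2, and 0.0197 or 0.00352 without MOZ-TIF2 replicate 1 or 2). The MOZ-TIF2 libraries differed by much, so that the first value was -5.55 without their replicate 2 and -2.54 without replicate 1, and its call was lost without either differentiated library (edgeR adjusted p = 0.0715 and 0.107).

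Of the receptors, Rarg held 9.67 and 18.2 CPM in MOZ-TIF2 cells, 50.4 and 31.5 CPM in differentiated cells, and 9.37 and 6.17 CPM in fresh cells. It was highest in differentiated cells, where it rose by 2.40 ± 0.45 over fresh cells (edgeR adjusted p = 0.00986), and it was lower in MOZ-TIF2 than in differentiated cells (-1.55 ± 0.43, edgeR adjusted p = 0.0400). The first call was lost without either fresh library (edgeR adjusted p = 0.0610 and 0.0819) and the second without either differentiated library or MOZ-TIF2 replicate 1 (edgeR adjusted p = 0.0536 to 0.166). Between MOZ-TIF2 and fresh cells the difference of 0.85 ± 0.43 did not pass (edgeR adjusted p = 0.197).

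Rxra held 14.4 and 23.7 CPM in MOZ-TIF2 cells, 33.8 and 56.1 CPM in differentiated cells, and 21.8 and 21.9 CPM in fresh cells. MOZ-TIF2 and fresh cells overlapped, with a difference of -0.20 ± 0.35 (edgeR adjusted p = 0.706). Against differentiated cells Rxra was lower in MOZ-TIF2 (-1.24 ± 0.35, edgeR adjusted p = 0.0435), a call lost without differentiated replicate 2 or MOZ-TIF2 replicate 1 (edgeR adjusted p = 0.176 and 0.129). Differentiated against fresh cells gave 1.04 ± 0.35 (edgeR adjusted p = 0.0577, and 0.0304 with DESeq2). Rara held 7.73 and 51.3 CPM in MOZ-TIF2 cells, 37.8 and 42.0 CPM in differentiated cells, and 17.3 and 11.8 CPM in fresh cells. The MOZ-TIF2 libraries lay on either side of the other groups, no comparison of Rara passed, and the difference from fresh cells was -0.91 without MOZ-TIF2 replicate 2, against 1.02 with it. It passed without MOZ-TIF2 replicate 1 (1.82, edgeR adjusted p = 0.0153), and the difference from differentiated cells passed without MOZ-TIF2 replicate 2 (-2.37, edgeR adjusted p = 0.00874).

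In all, 1 of 8 tested members was called higher and 1 lower in MOZ-TIF2 against fresh cells, where 23.7% of 15224 genes were called, 11.3% higher and 12.4% lower. Against differentiated cells none was higher and 4 were lower in MOZ-TIF2, where 29.5% were called, 13.3% higher and 16.2% lower. Differentiated against fresh cells gave 1 higher and 1 lower, where 40.7% were called, 21.0% higher and 19.7% lower. With DESeq2, or with no filter on low counts, 4 members passed for MOZ-TIF2 against fresh cells, and with the third group left out of the fit none passed for MOZ-TIF2 against differentiated cells.

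Among other genes of retinoid transport and metabolism, 3 of 18 rose and 2 fell in MOZ-TIF2 against fresh cells, where 11.3% of all genes rose and 12.4% fell. Cyp26a1 held 18.2 and 2.95 CPM in MOZ-TIF2 cells, 0.0955 and 0 CPM in differentiated cells, and 0.148 and 0 CPM in fresh cells. It rose against fresh cells (7.20 ± 1.65, edgeR adjusted p = 0.0284) and against differentiated cells (7.82 ± 1.66, edgeR adjusted p = 0.0179), though its 2 MOZ-TIF2 libraries differed widely. Fabp5, a fatty acid binding protein that also carries retinoic acid, rose by 1.61 ± 0.33 against fresh cells (edgeR adjusted p = 0.0209).

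The genes known to respond to retinoic acid split. Of 10 tested, 1 rose and 3 fell in MOZ-TIF2 against fresh cells, where 11.3% of all genes rose and 12.4% fell. Against differentiated cells 3 rose and 4 fell, where 13.3% of all genes rose and 16.2% fell. Asb2, a gene induced by retinoic acid in leukaemia cells, held 0 and 0.0292 CPM in MOZ-TIF2 cells, 91.2 and 8.23 CPM in differentiated cells, and 10.4 and 8.26 CPM in fresh cells, and fell in MOZ-TIF2 against both (edgeR adjusted p = 0.0170 against fresh cells). Itgax, an integrin of dendritic and other myeloid cells, likewise fell in MOZ-TIF2 cells, by -4.58 ± 0.48 against fresh cells (edgeR adjusted p = 0.00328).

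In single Ty1.MOZ-TIF2 cells under benzarone, Dhrs3 and Rara RNA stood higher at each later day and Aldh1a3 RNA stood lower, the last also with DMSO. The conditions held 826 cells with benzarone and 883 with DMSO on day 1, 829 with benzarone on day 3, and 1496 with benzarone and 1662 with DMSO on day 5. Each condition was 1 sample, and the day 5 cells of both treatments came from 1 sample, so no test was possible. Values are CPM of UMIs, that is of molecules counted, over the genes listed, with exact Poisson intervals (95%) that cover counting error only. Stra6, Aldh1a1, Aldh1a2 and Rarb were not listed in either table and Rxra was listed on day 5 alone. Median UMIs per cell were 44761.5 with benzarone and 42565 with DMSO on day 1, 44743 with benzarone on day 3, and 19763 with benzarone and 24575.5 with DMSO on day 5. Of 2538 cells of days 1 and 3, 3 barcodes occurred in 2 conditions, and 9 barcodes were shared between the tables. Day 5 was counted apart from days 1 and 3, over a different set of listed genes and with fewer UMIs per cell. Differences between day 5 and earlier days therefore cannot be told apart from differences between the tables.

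Dhrs3 stood at 7.88 CPM (7.01 to 8.84) with benzarone on day 1, against 3.68 (3.10 to 4.34) with DMSO. With benzarone it stood at 17.5 (16.2 to 18.9) on day 3. On day 5 it stood at 77.4 (74.4 to 80.5) with benzarone, against 5.16 (4.49 to 5.89) with DMSO. The ratio of benzarone to DMSO was 2.14 on day 1 and 15.0 on day 5. With DMSO, too, Dhrs3 stood higher on day 5 than on day 1, with intervals that did not overlap, though the tables differed as well. Rara stood at 14.2 (13.0 to 15.4) with benzarone on day 1, against 11.8 (10.7 to 12.9) with DMSO, a ratio of 1.20. It stood at 20.9 (19.4 to 22.4) with benzarone on day 3, and on day 5 at 49.6 (47.2 to 52.1) with benzarone, against 11.6 (10.6 to 12.7) with DMSO, a ratio of 4.27.

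Rxra followed on day 5 with 3.77 (3.13 to 4.50) with benzarone, against 0.819 (0.567 to 1.14) with DMSO, from 122 and 34 UMIs. Rarg varied little, at 2.89 (2.37 to 3.48) with benzarone on day 1, against 2.96 (2.44 to 3.55) with DMSO, at 2.89 with benzarone on day 3, and at 2.44 (1.93 to 3.04) with benzarone on day 5, against 2.82 (2.33 to 3.38) with DMSO. The intervals of Rarg overlapped at each day. Aldh1a3 stood at 2.91 (2.39 to 3.51) with benzarone on day 1, against 4.28 (3.65 to 4.99) with DMSO, at 1.79 (1.39 to 2.28) with benzarone on day 3, and at 0.494 (0.283 to 0.803) with benzarone on day 5, against 1.52 with DMSO. The last 2 values rest on 16 and 63 UMIs. With DMSO, too, Aldh1a3 stood lower on day 5 than on day 1 (1.52 against 4.28), so the lower level on day 5 was not limited to benzarone. Day and table cannot be told apart there. Benzarone was thus below DMSO for Aldh1a3 in these cells and above it in both lines, in other cells and after other times, and the difference was not tested.

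**Figure D4:**
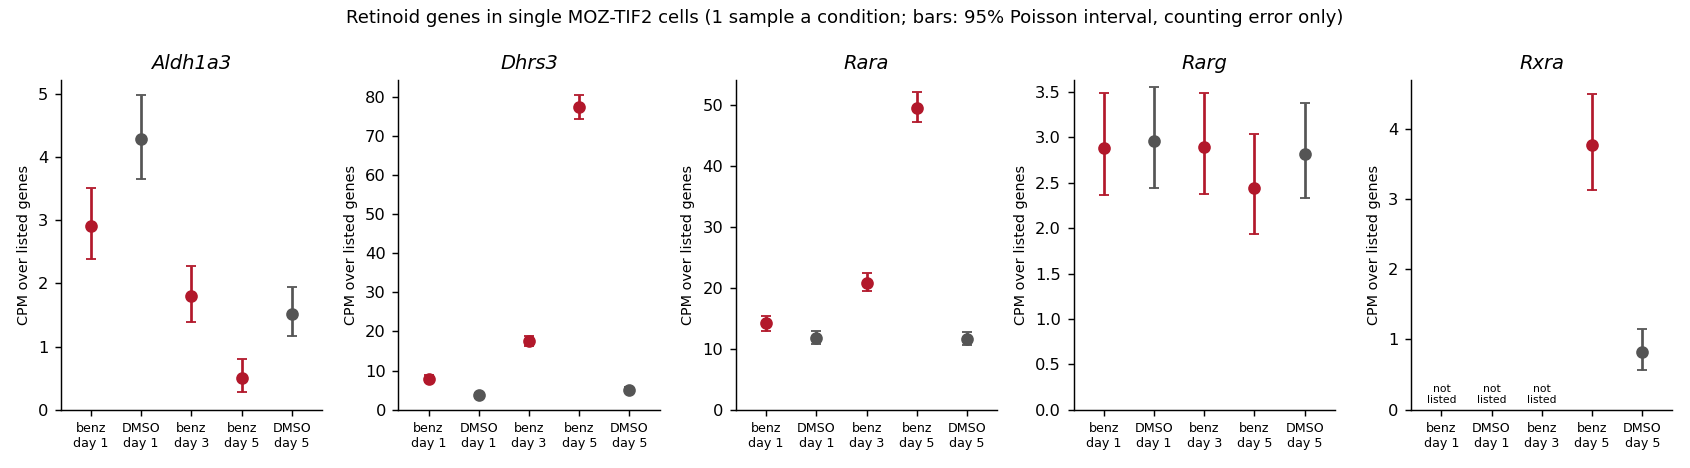
CPM over the listed genes (linear axes) for 5 members in single MOZ-TIF2 cells, by day, with benzarone left of DMSO; points are the sum over the cells of a condition (1 sample each) and bars the 95% Poisson interval of the counts. Dhrs3 reaches 77.4 and Rara 49.6 with benzarone on day 5. With DMSO, Rara lies at 11.8 on day 1 and 11.6 on day 5, and Dhrs3 at 3.68 and 5.16.

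On day 5, 4 of the 5 listed members differed by 2-fold or more between benzarone and DMSO (Dhrs3, Rara and Rxra higher, Aldh1a3 lower), where 30.5% of 11662 genes with at least 20 UMIs did, 16.7% higher and 13.7% lower. On day 1, 1 of 4 did (Dhrs3), where 0.413% of 9445 genes did, 0.275% higher and 0.138% lower. Between day 3 and day 1 with benzarone, 1 of 4 differed by that much (again Dhrs3), where 2.01% of 9448 genes did, 1.95% higher and 0.0635% lower. Of 12 genes known to respond to retinoic acid, 3 were listed on day 1, and none of these differed by 2-fold between benzarone and DMSO (median log2 ratio 0.74). On day 5, 9 were listed, and 7 of the 9 were 2-fold or more higher with benzarone and none lower. Of all genes, 16.7% were higher and 13.7% lower, and the median log2 ratio of the 9 was 2.52 beside -0.11 over all genes. Some may be listed through their benzarone counts, as Rarres1 with 267 UMIs against 14 and Asb2 with 233 against 17. The same may hold for Rxra, listed on day 5 alone with 122 UMIs against 34. The day 5 count therefore cannot be read as a result for all 12 genes. Cd38, an ectoenzyme of NAD, stood at 110 CPM with benzarone, against 8.58 with DMSO, Rarres1 at 8.25 against 0.337, and Asb2 at 7.20 against 0.410. Cyp26a1 stood at 5.62 with benzarone, against 0.891 with DMSO. In the same day 5 cells the late neutrophil markers summed to 21463 CPM with benzarone, against 10386 with DMSO, the monocyte and macrophage markers to 1010 against 197, the megakaryocyte markers to 7436 against 217, and the granulocyte progenitor markers to 1666 against 10681. The stem and progenitor markers, with 5 of 7 listed, summed to 427 CPM with benzarone, against 51.7 with DMSO. The megakaryocyte sum covered 3 of 5 markers, Pf4, Gp9 and Ppbp. The part of these shifts in the members' values was not tested.

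Ty1 immunoprecipitation located tagged MOZ-TIF2 on chromatin, with 3676 peaks in replicate 1 and 4564 in replicate 2, of which 3303 of replicate 1 overlapped one of replicate 2. The label of replicate 2 gives the catalogue number of the antibody used for acetylated histone H3, and which antibody was used for it is not settled by the labels. A peak of both replicates lay within 5 kb of a gene end for 1 of the 9 members, Aldh1a3, against 25.1% of 14498 tested genes with coordinates. That peak, at chr7:66387952-66388401, lay 2491 bp beyond the lower end of the Aldh1a3 gene (chr7:66390892-66427477). It overlapped the neighbouring gene Lrrk1 (chr7:66258745-66388341), which encodes a protein kinase, at its promoter window, so that its nearness to Aldh1a3 cannot be told apart from its place on Lrrk1. No member had such a peak within 1 kb, against 21.4% of genes, and Aldh1a3, Rara and Rarg had one within 50 kb, against 44.5%. A peak of replicate 1 alone lay within Rara and the predicted gene Gm46294 (chr11:98937802-98938051), and a peak of replicate 2 alone, chr15:102246202-102247901, lay within Rarg over the promoter window printed above. No Ty1 peak of either replicate touched a promoter window of Stra6, Aldh1a1, Aldh1a2, Dhrs3, Rarb or Rxra.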

How the data were processed

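Bulk libraries were stranded and poly(A) selected, per the labels' protocols. Both bulk tables were deposited as estimated counts of genes (Salmon 0.13.0, per the submitters' processing notes). The counts were rounded and analysed per table in R 4.3.3 with edgeR 4.0.16 (filterByExpr, TMM, two-sided quasi-likelihood F test fitted to all groups of the table), which left 15224 and 13375 genes. A group without counts is set at a floor of 3 counts over the group, which, like the Poisson intervals, covers counting error only. Alternatives were DESeq2 1.42.0, no filter, a replicate block, only the groups compared, and leaving out each library. Same-numbered benzarone and DMSO libraries of HOXA9 deviated together (r = 0.389, 0.464 and 0.793), a pairing read from the data and not stated by the labels, so fits with a block among them were added after seeing the data. Single-cell tables hold deposited UMI counts, summed here by condition, with Cell Ranger 3.0.0 named in the submitters' processing notes. All deposited cells were kept, doublets were not called and cells were not clustered. Peak lists were deposited as intervals on GRCm38 and compared by 1 bp overlap and distance to either gene end. Samples for acetylated histone H3 and the input were not analysed here. The members and lists were chosen with earlier results of these data known. The named genes are all members, up to 4 called genes per list and comparison, and the 2 genes most like each member, among genes with at least 10 CPM in a group. Some named genes of the lists are not reported here.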

Additional observations from a re-analysis of the deposited data

Results flagged for a closer look

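The response to benzarone differed between the lines for Rarg, with an interaction of 1.35 on the log2 scale (edgeR adjusted p = 0.0135), and it stayed the 1 called member without any single library. Among the other retinoid genes listed, it also differed for Aldh1l1, a folate enzyme of the aldehyde dehydrogenase family (1.44, edgeR adjusted p = 0.00595), for Vdr, the vitamin D receptor, which pairs with retinoid X receptors (3.40, edgeR adjusted p = 0.0443), and for Cebpe (-3.03, edgeR adjusted p = 0.0470). Vdr held 436, 318 and 242 CPM in EYA1+HOXA9 with benzarone, against 11.2, 51.3 and 4.36 CPM with DMSO, while in HOXA9 it held 9.19, 8.62 and 6.51 CPM with benzarone, against 7.86, 5.45 and 3.99 CPM with DMSO.

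Aldh1a3 was lower with benzarone in single MOZ-TIF2 cells, by a log2 ratio of -0.56 on day 1 and -1.62 on day 5, and higher with benzarone in all libraries of both lines. Cells and times differ, each single-cell condition was 1 sample, and the difference was not tested.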

How the results depend on the processing

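Called members for MOZ-TIF2 against fresh cells numbered 4 with DESeq2, 4 without a filter and 1 with the replicate block, against 2. For MOZ-TIF2 against differentiated cells they numbered 1 with the block and 0 with only the groups compared, against 4, and for differentiated against fresh cells 4 with only the groups compared, against 2. Called genes numbered 2094 with the block for MOZ-TIF2 against fresh cells, 14 with DESeq2, 6 with the block and 1 with only the groups compared for benzarone in HOXA9, and 1724 with DESeq2 for the interaction. Added after seeing the data, the block among the HOXA9 libraries gave 1720 genes for the interaction, and in a fit of these 6 alone 20 genes and 1 member (Aldh1a3) for benzarone in HOXA9, with no other call of a member changed. The labels state no link beyond the number for any pair. Elsewhere the deviations of same-numbered libraries correlated by -0.37 to 0.29 in the other line pairs and by -0.09 to -0.01 in the other table. Over all line pairs, those of HOXA9 included, r was over 0.1 in 8 of 18 with the same number and 7 of 36 others. Members with a Ty1 peak numbered 0 within 1 kb and 3 within 50 kb. The cause of these changes was not tested.

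Leaving out 1 library in turn, called genes ranged over 374 to 3181 (MOZ-TIF2 against fresh cells), 2847 to 4278 (MOZ-TIF2 against differentiated cells), 1259 to 4891 (differentiated against fresh cells), 2211 to 3596 (between the lines in benzarone), 1735 to 3486 (between the lines in DMSO), 2353 to 3923 and 0 to 1 (benzarone in EYA1+HOXA9 and in HOXA9) and 408 to 1182 (interaction). Called members ranged, in the same order, over 0 to 3, 1 to 4, 0 to 3, 3 to 5, 3 to 4, 4 to 6, 0 to 0 and 1 to 1. The lowest counts against fresh cells came without a fresh library. Log2 differences that turned sign were uncalled ones: Rara for MOZ-TIF2 against fresh cells (-0.91 to 1.82), against differentiated cells (-2.37 to 0.36) and in the interaction (-0.40 to 0.16), Rxra for MOZ-TIF2 against fresh cells (-0.59 to 0.12) and for benzarone in HOXA9 (-0.34 to 0.28, and 0.00568 without a filter), and Aldh1a2 (-1.05 to 4.25) and Aldh1a3 (-0.94 to 0.42) for differentiated against fresh cells. A lone library of a group was assumed to vary like the others. In the lines, Stra6, Aldh1a3, Dhrs3 and Rarg kept under each alternative run the calls of the unblocked edgeR fit of all libraries. Calls that only an alternative run gave, as for Aldh1a3 in HOXA9, are not among these.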

Other observations

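Of 7 non-member aldehyde dehydrogenases tested, 4 rose with benzarone in EYA1+HOXA9 and none fell, where 17.0% of all genes rose and 12.4% fell. Their median log2 difference was 0.67, beside 0.01 over all genes. Aldh1l1 held 31.1, 37.8 and 38.3 CPM with benzarone, against 13.4, 17.1 and 10.8 CPM with DMSO (1.37 ± 0.17, edgeR adjusted p = 0.000228), and 40.9 to 51.6 CPM in HOXA9 with benzarone, against 43.1 to 54.8 CPM with DMSO. Aldh2, the mitochondrial enzyme that clears acetaldehyde, rose by 0.69 ± 0.11 (edgeR adjusted p = 0.00107).

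Of the receptor partners and coregulators, 6 of 17 tested rose and 3 fell in MOZ-TIF2 against fresh cells, where 11.3% of all genes rose and 12.4% fell. Among the 6 was Ncoa2, the gene of TIF2, so reads of the transgene could count towards it (1.25 ± 0.27, edgeR adjusted p = 0.0236). Ncoa2 held 89.8 to 105 CPM in MOZ-TIF2 cells, 113 to 153 CPM in differentiated cells and 34.4 to 47.8 CPM in fresh cells. The part of the transgene in its value was not tested. Nrip1, a corepressor of nuclear receptors, held 0.137 and 0.0583 CPM in MOZ-TIF2 cells, 56.0 and 36.3 CPM in differentiated cells, and 36.4 and 42.9 CPM in fresh cells (-8.58 ± 0.48 against fresh cells, edgeR adjusted p = 0.000919). In the lines Nrip1 held 1.56, 1.54 and 1.07 CPM in EYA1+HOXA9 with benzarone, against 0.0336, 0.207 and 0.0338 CPM with DMSO (3.82 ± 0.62, edgeR adjusted p = 0.000907). Ncor1, a corepressor that binds unliganded retinoic acid receptors, rose in MOZ-TIF2 against fresh cells by 1.71 ± 0.37 (edgeR adjusted p = 0.0251).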
